A study of Mus musculus with 20 samples.

Results

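Tau, the synucleins and the proteins that bind or regulate microtubules are described here by 9 genes. They are Mapt, which codes for tau, the other microtubule-associated protein genes Map1a, Map1b, Map2 and Map4, the synuclein genes Sncb and Sncg, and the stathmin genes Stmn1 and Stmn2. They were picked by gene symbol, with no use of their levels, from the 24421 gene rows that all 20 count lists share, and all 9 were present in each list. RNA-seq had been performed on whole neocortex (NCX) and whole hippocampus (HP) of conditional triple knockout (cTKO) mice and littermate controls, both 3 months old, with 5 libraries for each genotype and region. Both genotypes carried floxed alleles of the amyloid precursor protein family genes App, Aplp1 and Aplp2 on a hybrid C57BL/6J and 129 background, and mice of both sexes were used. The cTKO mice also carried Camk2a-Cre, which removes the floxed segments from forebrain excitatory neurons after birth, whereas the controls had no Cre, although the labels call them wild type. Inhibitory neurons, glia and vessels keep the 3 genes, and their RNA is part of every library. NCX and HP RNA was extracted with different kits, so that a difference between the regions and a difference between the kits cannot be told apart.

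Microtubules are polymers of alpha- and beta-tubulin that carry transport and give axons and dendrites their shape. Tau binds them mainly in axons, Map2 mainly in dendrites and cell bodies, Map1a and Map1b along both, and Map4 in many cell types besides neurons, whereas stathmins bind free tubulin and favour disassembly. Beta- and gamma-synuclein are small soluble proteins, the former enriched in presynaptic terminals and the latter in certain projection and sensory neurons. Tau is best known from the tangles of Alzheimer's disease, the disease whose plaques hold a fragment of the App protein.

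Total counts ranged from 12169474 to 25331954 per library, and 3 counts, taken as the smallest level a library can show, corresponded to 0.118 to 0.247 CPM, that is, counts scaled to a common library size. The 9 genes together accounted for 6569 to 8559 CPM, and each was listed with at least 27 counts in every library. App, Aplp1 and Aplp2 were lower in each cTKO library than in any control library of its region, with log2 fold changes of -2.10, -1.92 and -1.60 in NCX and -1.78, -1.93 and -1.25 in HP (all called by edgeR's quasi-likelihood test). Of the hippocampal markers Prox1, Zbtb20, Wfs1, Fibcd1 and Lct, the first was 62.9 to 88.6 CPM in control HP and 10.04 to 16.1 CPM in control NCX, and Zbtb20, Fibcd1 and Lct were likewise higher in each control HP library than in any control NCX library. Wfs1 did not separate the control regions, with 112 to 220.2 CPM in HP and 168 to 204 CPM in NCX. In cTKO NCX it was 224 to 493 CPM. The means of Prox1, Zbtb20 and Fibcd1 in cTKO NCX were below those of control NCX. That of Lct was above, at 1.68 CPM against 1.53 CPM. In a pair of libraries, NCX of cTKO replicate 5 and HP of cTKO replicate 4, a list of 8 genes of embryonic tissue summed to 609 and 384 CPM, against 0.821 to 3.08 CPM in the other 18. The sums came from 4 of the 8, among them Hbb-y, an embryonic globin, and H19, whereas the 4 Hox genes of the list were at 0 in every NCX library and at most 0.0503 CPM in HP. Without this pair of libraries the counts of members called between genotypes or regions were the same, and values are given beside the results.

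The positions are those of the mm10 assembly (GRCm38) by GENCODE vM21. Mapt is at chr11:104231390-104332090 on the plus strand, Map1a at chr2:121289600-121310832 (plus), Map1b at chr13:99421446-99516540 (minus), Map2 at chr1:66175273-66442583 (plus) and Map4 at chr9:109931460-110083955 (plus). Sncb is at chr13:54758860-54766595 (minus), Sncg at chr14:34370274-34374789 (minus), Stmn1 at chr4:134468320-134473843 (plus) and Stmn2 at chr3:8509360-8561606 (plus). Their exons, merged over transcripts, cover from 852 bases in Sncg to 16449 bases in Map2. Map1a shares 272 exonic bases with Ppip5k1 on the opposite strand, whose level was 88.6 to 178 CPM, so that reads there may be uncertain. The other genes that overlap a member had no row in the counts.

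RefSeq promoter windows of GRCm38.p6, which run from 250 bases before to 50 bases after a gene's start, were matched for 6 of the 9 genes, with a pair of windows for Map4 and 7 windows in all. They were searched on both strands for the TATA box as TATAAA, the CCAAT box as CCAAT, the GC box as GGGCGG and the E box as CACGTG. The GC box was present in 6 of the 7 windows (35.7% of all 32851 windows), the CCAAT box in 4 (37.4%), the TATA box in 1, that of Map1b (13.6%), and the E box in 0 (7.15%). The windows of Sncb and Sncg are shown because these synuclein genes differed between the regions in opposite directions, and that of Map1a because it had the smallest p of the 9 between genotypes. Capitals mark the GC box and the CCAAT box on either strand, and the matches that overlap by a base in Map1a are run together.
Sncb, chr13:54766546-54766845, minus strand: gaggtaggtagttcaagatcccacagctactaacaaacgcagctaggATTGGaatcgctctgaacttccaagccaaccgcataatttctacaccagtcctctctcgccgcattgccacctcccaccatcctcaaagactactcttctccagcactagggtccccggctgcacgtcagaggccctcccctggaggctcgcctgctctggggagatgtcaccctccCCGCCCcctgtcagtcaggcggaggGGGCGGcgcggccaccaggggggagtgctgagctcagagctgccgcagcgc
Sncg, chr14:34374620-34374919, minus strand: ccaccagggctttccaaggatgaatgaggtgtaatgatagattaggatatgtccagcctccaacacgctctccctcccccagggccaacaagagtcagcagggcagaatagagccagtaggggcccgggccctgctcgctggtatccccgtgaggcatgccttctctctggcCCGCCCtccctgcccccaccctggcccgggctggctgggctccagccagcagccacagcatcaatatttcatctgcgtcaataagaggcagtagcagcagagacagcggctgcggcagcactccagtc
Map1a, chr2:121289352-121289651, plus strand: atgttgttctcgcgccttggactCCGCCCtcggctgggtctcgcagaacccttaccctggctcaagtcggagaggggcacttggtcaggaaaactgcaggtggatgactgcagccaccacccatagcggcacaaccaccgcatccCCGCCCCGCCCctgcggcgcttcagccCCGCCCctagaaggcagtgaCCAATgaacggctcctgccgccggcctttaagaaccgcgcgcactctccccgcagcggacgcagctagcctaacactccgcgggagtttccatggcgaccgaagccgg
The Sncb window held 15 CpG dinucleotides and the Sncg window 9, whereas that of Map1a held 27, and the median over all windows was 7.

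The first question was whether loss of the APP family in excitatory neurons was accompanied by a different level of these transcripts. In NCX, 0 of the 9 genes passed an FDR of 0.05 by the quasi-likelihood test of edgeR, in which 0.188% of the 13843 genes tested were called. An unadjusted p under 0.05 was held by 1 of the 9, Map1a, a share near the 10.4% of all genes. In HP, 0 of the 9 genes passed (0.489% of 13702 genes were called), and 0 had an unadjusted p under 0.05 (12% of all genes). The other tools gave the same count of 0 in HP, whereas Map1a was called in NCX by 3 of them, DESeq2 and the exact and likelihood ratio tests of edgeR. Those 3 tests also called more genes in all, 221, 163 and 167 of 13843 in this order, against 26 in the quasi-likelihood test.

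Map1a codes for a large precursor that yields the heavy chain and a light chain of a microtubule-stabilizing protein of mature neurons. Its level was 2396, 2487, 2551, 2438 and 2452 CPM in the 5 control NCX libraries and 2127, 2260.1, 2036, 2124 and 2070.5 CPM in the 5 cTKO libraries, so that the genotypes did not overlap, as was so in this direction for 1.58% of the genes tested. The mean was 2465 ± 58.3 CPM in controls against 2124 ± 85.4 CPM in cTKO mice (SD, n = 5), a difference of -13.8%. The log2 fold change was -0.21 (SE 0.051, 95% CI -0.32 to -0.10), with an unadjusted p of 0.00111 and an FDR of 0.134 by the quasi-likelihood test of edgeR. The FDR was 0.0279 in edgeR's exact test, 0.0273 in its likelihood ratio test and 0.000258 in DESeq2. By permutation of log2 CPM (exact, two-sided), the unadjusted p was 0.00794, the smallest that 5 libraries against 5 allow. The lack of overlap fixes this value, so it adds nothing to it. Whether Map1a passes thus depended on the test, while its direction was the same in all 19 alternatives, with log2 fold changes between -0.23 and -0.19. Without cTKO replicate 5 it was -0.21, with an FDR of 0.104 in edgeR.

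Map1a is a long transcript, and the 1392 tested genes with at least 10 kb of exon had a median log2 fold change of -0.03 in this comparison, with quartiles of -0.11 and 0.04. A value below that of Map1a was held by 7.04% of them. In HP, Map1a was 1864, 2113, 1966, 2101 and 2349 CPM in the control libraries and 1752, 1553, 2211, 1921 and 2392 CPM in cTKO mice. The genotypes overlapped throughout there, and the log2 fold change was -0.08 (SE 0.11, 95% CI -0.32 to 0.16, FDR 0.839 in edgeR). The difference between the effects in HP and NCX was 0.13 on the log2 scale (SE 0.12, interaction test, FDR 0.9999), so an effect on Map1a particular to NCX was not shown. Map1b, the paralog of Map1a that is expressed mainly in growing axons of the developing brain, had 1870.0 to 2059.8 CPM in control NCX and 1717 to 2333 CPM in cTKO NCX, with a log2 fold change of 0.07. The ratio of Map1a to Map1b, each per kilobase of exon, was 1.51 to 1.71 in control NCX and 1.19 to 1.54 in cTKO NCX, with 1 or more libraries of each genotype in the shared range.

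Mapt was 696, 692, 730.1, 720.2 and 715 CPM in control NCX and 675, 659, 739.6, 670.1 and 607 CPM in cTKO NCX. The library with the highest and that with the lowest tau level were both cTKO libraries. The lowest was replicate 5, which also held the embryonic transcripts, and without it the log2 fold change in NCX was -0.05. With all libraries, the log2 fold change of Mapt was -0.08 (95% CI -0.19 to 0.04) in NCX and 0.02 (95% CI -0.13 to 0.16) in HP, where controls had 551, 527, 550.1, 577 and 555 CPM and cTKO mice 564, 539, 599, 487 and 603 CPM. The intervals leave room for a tau level up to 0.19 lower in NCX and up to 0.16 higher in HP on the log2 scale, and Mapt did not pass the test in either region.

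Map2 and Map4 also showed no call between genotypes. Map2, the dendritic protein, had a log2 fold change of 0.04 (95% CI -0.09 to 0.17) in NCX and 0.06 (95% CI -0.17 to 0.28) in HP. Map4, the member that is least confined to neurons, had the narrowest interval of the 9 in NCX, with 572 to 604 CPM in controls, 553 to 594 CPM in cTKO mice and a log2 fold change of -0.03 (95% CI -0.13 to 0.07). In HP its log2 fold change was -0.05 (95% CI -0.19 to 0.10).

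**Figure D1:**
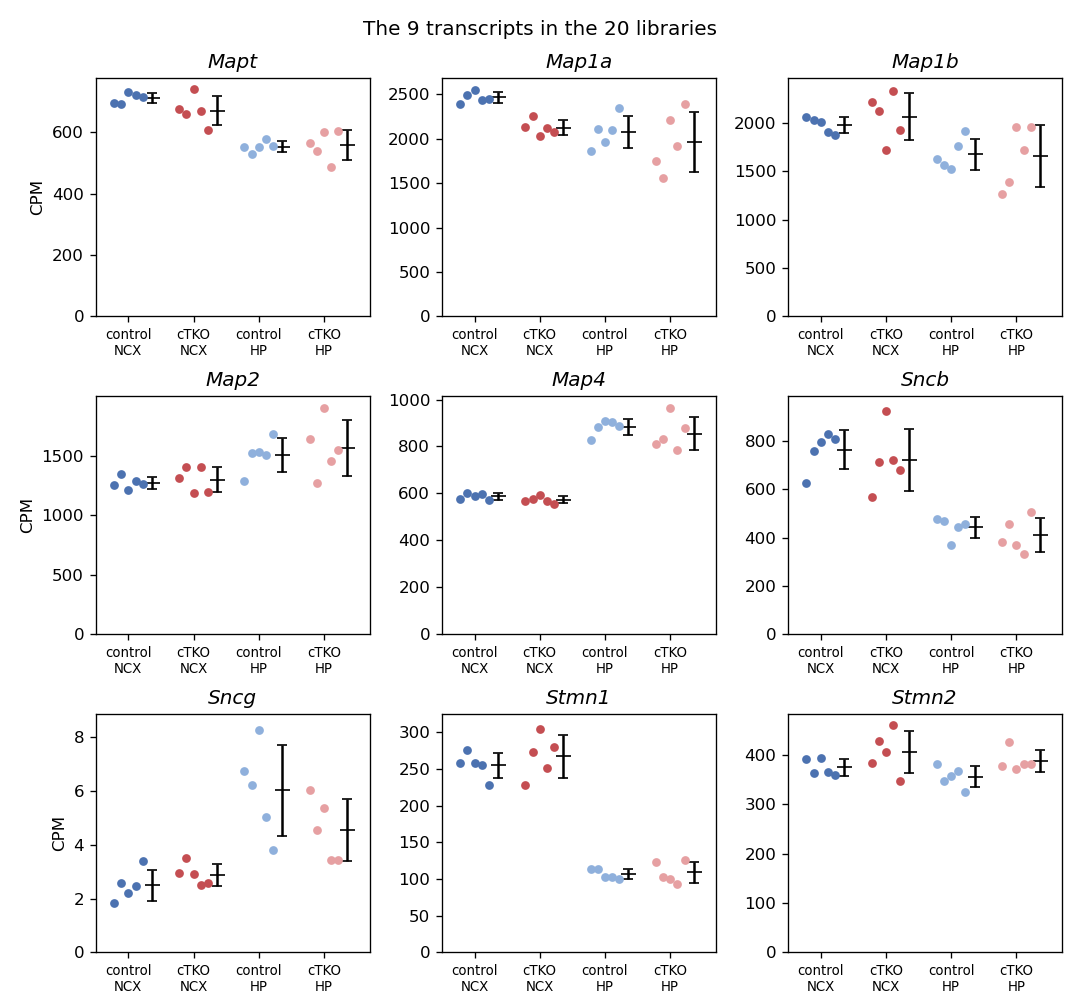
Level in CPM (vertical axis, from 0) of each gene in the 5 libraries of control NCX, cTKO NCX, control HP and cTKO HP, 1 point a library in the order of replicates 1 to 5, with the mean ± SD (n = 5) to the right of the points. Map1a is the gene whose control and cTKO points do not overlap in NCX, while Mapt, Map4, Sncb and Stmn1 separate the regions in both genotypes.

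Of the synuclein genes, Sncb was abundant and Sncg was near the lower end of what was tested. Sncb was 627, 758, 798, 829.9 and 808 CPM in control NCX and 569.5, 713, 926, 722 and 682 CPM in cTKO NCX. The spread was wide in both genotypes, replicate 1 being the lowest in each, and the log2 fold change was -0.08 (95% CI -0.31 to 0.16). In HP it was -0.11 (95% CI -0.35 to 0.13), with 443 ± 43.6 CPM in controls against 409.9 ± 70.4 CPM in cTKO mice.

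Sncg was 1.85, 2.57, 2.22, 2.48 and 3.41 CPM in control NCX and 2.94, 3.53, 2.90, 2.49 and 2.60 CPM in cTKO NCX. In HP it was 6.74, 6.23, 8.27, 5.04 and 3.82 CPM in controls and 6.03, 4.56, 5.37, 3.45 and 3.43 CPM in cTKO mice. The genotypes overlapped in both regions, with the means in opposite order. The log2 fold change was 0.22 (SE 0.19, 95% CI -0.19 to 0.64) in NCX and -0.40 (SE 0.22, 95% CI -0.88 to 0.08) in HP. The difference between them was -0.62 (SE 0.30, 95% CI -1.24 to 0.00), which had an unadjusted p of 0.0517 and an FDR of 0.9999 in the interaction test of edgeR. Of the 9 genes, 0 passed that test, in which 0.0564% of 14192 genes were called. Within control HP, Sncg was highest in replicate 3 and lowest in replicate 5, and the markers of choroid plexus and ependyma (Ttr, Kl, Foxj1 and Ccdc153) were also highest in replicate 3, at 2618 CPM, and lowest in replicate 5, at 82.9 CPM. Within cTKO HP those markers were highest in replicate 5, at 589 CPM, where Sncg was lowest, and all 4 were detected in each group. Their part in the Sncg values was not tested.

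Neither stathmin was called between genotypes. Stmn1, the ubiquitous stathmin, was 228 to 276 CPM in control NCX and 228 to 305 CPM in cTKO NCX, with a log2 fold change of 0.07 (95% CI -0.09 to 0.24). Stmn2 codes for SCG10, the neuronal stathmin of growth cones. It was 382, 348, 357, 367 and 326 CPM in control HP and 378, 426, 372, 381 and 382 CPM in cTKO HP. All 5 cTKO libraries were above the control mean of 356 ± 21.1 CPM, but replicate 1 of the controls lay within the cTKO range. The log2 fold change of Stmn2 in HP was 0.12 (SE 0.064, 95% CI -0.01 to 0.26, FDR 0.469 in edgeR), and an exact permutation test, two-sided, gave an unadjusted p of 0.0397, or 0.111 without TMM scaling. In NCX its log2 fold change was likewise 0.12 (95% CI -0.03 to 0.27, FDR 0.584).

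**Figure D2:**
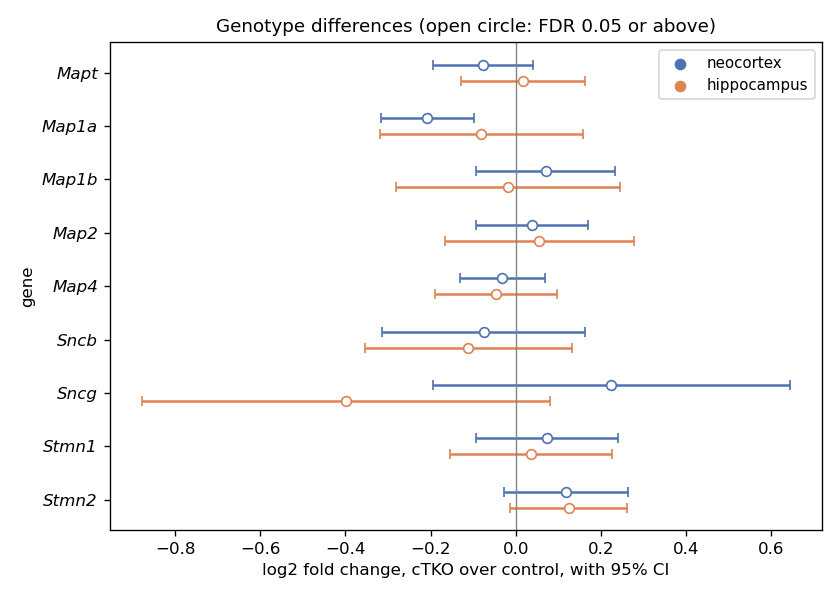
Log2 fold change of cTKO over control (horizontal axis) with its 95% CI for each of the 9 genes (vertical axis) in NCX and HP, from edgeR's quasi-likelihood test with 5 libraries against 5. All circles are open because no gene had an FDR under 0.05. The interval of Map1a in NCX, -0.32 to -0.10, is the one that does not include 0.

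In bulk tissue, fewer cells of a type and less RNA per cell cannot be told apart, which holds for all comparisons here. Neuronal markers (Rbfox3, Snap25, Syt1, Slc17a7, Gad1 and Gad2) summed to 8712 to 9110.4 CPM in control NCX, 8696 to 9891 CPM in cTKO NCX, 7039.6 to 7869 CPM in control HP and 6821 to 7946 CPM in cTKO HP. The sums, of which Snap25 and Syt1 make up the larger part, overlapped between genotypes and were lower in HP, and all 6 genes were detected in every group. Slc17a7, the vesicular glutamate transporter of excitatory neurons, went another way. It was 1411 to 1662 CPM in control HP and 1669 to 2051 CPM in cTKO HP, without overlap (1.91% of genes were so in this direction), and at 1390.0 to 1585 CPM in control NCX it overlapped between the regions. Gad1, at 289 to 389 CPM in control NCX and 267 to 333 CPM in control HP, overlapped as well, as did Gad2 (219 to 256 and 189 to 235 CPM). Rbfox3, Snap25 and Syt1 were lower in each control HP library than in any control NCX library. The mean of Gad2, which makes GABA in inhibitory neurons, was 207 CPM in control HP and 254 CPM in cTKO HP. The part of these markers in the values of the 9 genes was not tested.

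The second question was how the 9 genes differed between the regions. In control mice, 8 of the 9 passed an FDR of 0.05 by the quasi-likelihood test of edgeR, in a comparison in which 59.1% of the 13832 genes tested were called. Map2, Map4 and Sncg were higher in HP, and Mapt, Map1a, Map1b, Sncb and Stmn1 were lower. Stmn2 was not called. The libraries did not overlap for 6 of the 9 genes, against 44.2% of all genes. In cTKO mice, 5 of the 9 were called, with Map4 and Sncg higher and Mapt, Sncb and Stmn1 lower (41.3% of 13846 genes called), and 4 did not overlap (28.8%). The same 5 genes were called in controls in the same directions, but the comparisons in controls and in cTKO mice use different libraries of different spread, and 0 of the 9 genes passed the interaction test.

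Stmn1 had the smallest p among them in both genotypes. It was 258, 276, 259, 256 and 228 CPM in control NCX and 114, 114, 103, 102 and 99.8 CPM in control HP. The highest HP library, at 114 CPM, thus lay below the lowest NCX library, at 228 CPM. The log2 fold change of HP over NCX was -1.26 in controls (SE 0.060, 95% CI -1.39 to -1.14, FDR 1.75e-10) and -1.31 in cTKO mice (SE 0.11, 95% CI -1.54 to -1.08, FDR 1.54e-06, edgeR). Stmn2, by contrast, was 359 to 394 CPM in control NCX and 326 to 382 CPM in control HP, with a log2 fold change of -0.08 (95% CI -0.19 to 0.03, FDR 0.199). Per kilobase of exon, Stmn1 exceeded Stmn2 by a ratio of 1.85 to 2.22 in control NCX, whereas in control HP the ratio was 0.813 to 0.956 and Stmn2 was the higher in every library. In cTKO mice the ratio was 1.59 to 2.35 in NCX and 0.702 to 0.963 in HP.

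The synuclein genes differed between regions in opposite directions. Sncb was 479, 468, 368, 445 and 455 CPM in control HP, all below the lowest control NCX library at 627 CPM. Its log2 fold change was -0.79 in controls (SE 0.083, FDR 1.02e-06) and -0.83 in cTKO mice (SE 0.14, FDR 0.000435, edgeR). Sncg was 2.51 ± 0.577 CPM in control NCX and 6.02 ± 1.69 CPM in control HP (SD, n = 5), with a log2 fold change of 1.28 (SE 0.21, 95% CI 0.82 to 1.73, FDR 0.000108). In cTKO mice the log2 fold change of Sncg was 0.64 (SE 0.20, 95% CI 0.21 to 1.07, FDR 0.0209), and without HP of cTKO replicate 1 it was 0.52 with an FDR of 0.0549, while without both libraries that held embryonic transcripts it was 0.70 with an FDR of 0.0195. Choroid plexus and ependyma markers were also higher in HP than in NCX, at 82.9 to 2618 CPM against 13.3 to 21.2 CPM in controls, and their part in the regional difference of Sncg was not tested.

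Among the microtubule-associated proteins, Map4 and tau separated the regions in every library and in opposite directions. Map4 was 575, 604, 591, 599.8 and 572 CPM in control NCX and 826, 884, 909.9, 903 and 887 CPM in control HP, a log2 fold change of 0.58 (SE 0.045, 95% CI 0.48 to 0.67, FDR 3.82e-08, edgeR). In cTKO mice it was 0.56 (SE 0.070, FDR 5.15e-05). Mapt had a log2 fold change of -0.37 in controls (SE 0.044, 95% CI -0.46 to -0.28, FDR 3.65e-06) and -0.28 in cTKO mice (SE 0.079, FDR 0.0129). Per kilobase of exon, the ratio of Mapt to Map4 was 2.30 to 2.51 in control NCX and 1.20 to 1.34 in control HP, and 2.21 to 2.5 and 1.24 to 1.40 in cTKO mice. The ranges of the regions were thus far apart in both genotypes. The summed neuronal markers, given above, were lower in control HP, while the summed astrocyte markers (Gfap, Aqp4, Slc1a3, Aldh1l1 and Gja1) were 1126 to 1324 CPM in control NCX and 1893 to 2395 CPM in control HP. Aldh1l1 went against that sum, with 53.1 to 62.5 CPM in control NCX and 42.5 to 51.1 CPM in control HP. The part of these markers was not tested.

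The regional differences of Map1a, Map1b and Map2 were smaller. In control HP, Map1a had a log2 fold change of -0.25 (SE 0.056, FDR 0.00118), Map1b of -0.24 (SE 0.060, FDR 0.00279) and Map2 of 0.24 (SE 0.061, FDR 0.00353) in edgeR's quasi-likelihood test. The regions did not overlap for Map1a, whereas for Map1b and Map2 a library or more of each region lay in the other's range. In cTKO mice the values were -0.13 (FDR 0.370) for Map1a, -0.33 (FDR 0.0577) for Map1b and 0.25 (FDR 0.0708) for Map2, and 0 of these 3 genes passed. The calls of Map1b and Map2 depended on the setting, since in cTKO mice Map1b was called in 7 of 20 alternatives and Map2 in 3, and in a fit of all 20 libraries the call of Map1b in controls was lost (FDR 0.0684). For Map1a, the cTKO NCX libraries were the lower side of the genotype difference described above. The 1394 genes tested in controls with at least 10 kb of exon had a median log2 fold change of -0.21 between the regions, so that Map1a and Map1b lay at the 45.4 and 46.5 percentile of long transcripts, while Map2 and Map4 lay at the 85.8 and 94.2 percentile.

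**Figure D3:**
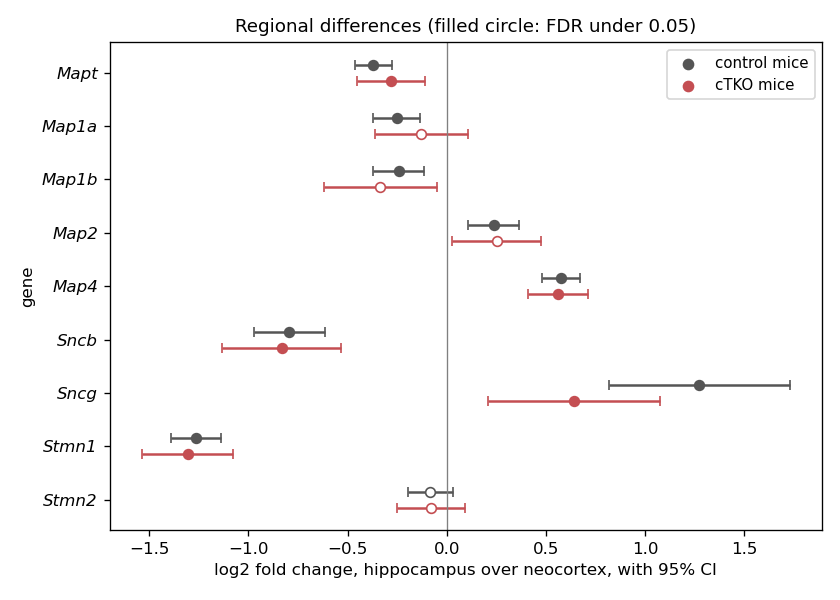
Log2 fold change of HP over NCX (horizontal axis) with its 95% CI for each of the 9 genes (vertical axis) in control and in cTKO mice, from edgeR's quasi-likelihood test with 5 libraries against 5. Filled circles have an FDR under 0.05. Stmn1 (-1.26 and -1.31), Sncb and Mapt lie to the left of 0 in both genotypes, and Map4 and Sncg to the right.

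The spread among replicates differed between the genes. In control NCX the coefficient of variation was 2.28% for Mapt, 2.37% for Map1a, 2.47% for Map4 and 3.77% for Map2, and 10.6% for Sncb and 23.0% for Sncg. In cTKO HP it was 17.2% for Map1a, 19.3% for Map1b and 15% for Map2, with Map1b at 1264, 1383, 1956, 1718 and 1952 CPM in the 5 libraries. Replicates 1 and 2 were low and replicates 3 and 5 high for both Map1a and Map1b. Map2 differed in part, with deviations from its mean log2 CPM of 0.083 in replicate 1 and -0.002 in replicate 5. It was low in replicate 2 (-0.289) and high in replicate 3 (0.296). The median deviation of 1384 other genes with at least 10 kb of exon was -0.12 and -0.10 in replicates 1 and 2 and 0.06, 0.08 and 0.07 in replicates 3, 4 and 5, on the log2 scale. By the paper's numbering, RNA integrity within cTKO HP was lowest in samples 1 and 2. Within cTKO NCX it was lowest, and equal, in samples 1 and 3, where the median deviation of the long genes was 0.06 and -0.17. The part of the long-gene median or of RNA integrity in the spread of Map1a and Map1b was not tested. Sncg was counted from 27 to 182 reads per library, so that counting error takes a larger share of its spread than for the other 8 genes, which had at least 1908 reads.

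Levels of different genes can be set side by side only per length, here as CPM per kilobase of merged exon, with the reservation that the transcripts used in this tissue may be shorter. In control NCX the order was Sncb (356 ± 37.8 CPM per kb), Map1a (203 ± 4.79), Stmn1 (133 ± 8.97), Map1b (125 ± 5.31), Mapt (94.4 ± 2.15), Map2 (77.4 ± 2.92), Stmn2 (67.0 ± 3.02), Map4 (38.9 ± 0.959) and Sncg (2.94 ± 0.677), each with SD and n = 5. Of neighbours in this order, the libraries of Stmn1 (119 to 144) and Map1b (118 to 130.0) overlapped, and those of the other neighbours did not. In control HP the order was Sncb (206 ± 20.3), Map1a (171 ± 15), Map1b (106 ± 10.1), Map2 (91.6 ± 8.63), Mapt (73.3 ± 2.35), Stmn2 (63.5 ± 3.77), Map4 (58.3 ± 2.19), Stmn1 (55.5 ± 3.56) and Sncg (7.07 ± 1.98). There, Sncb and Map1a, Map1b and Map2, Stmn2 and Map4, and Map4 and Stmn1 overlapped. Stmn1 thus stood at rank 3 in NCX and rank 8 in HP, and Map2 passed Mapt, with a ratio of Mapt to Map2 of 1.12 to 1.31 in control NCX and 0.719 to 0.934 in control HP.

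**Figure D4:**
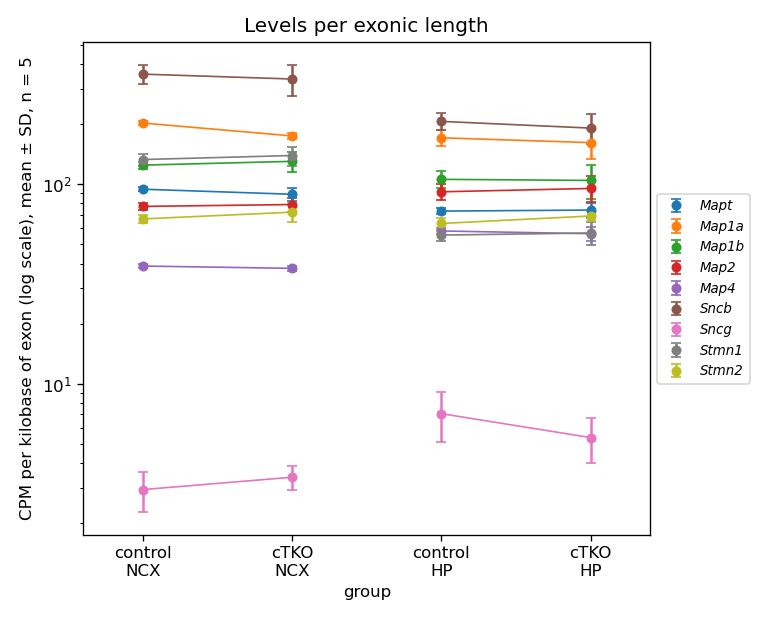
Mean level ± SD (n = 5) of the 9 genes in CPM per kilobase of exon (vertical axis, log scale) in control and cTKO NCX and in control and cTKO HP (horizontal axis), with lines joining the genotypes of a region. Stmn1 moves from 133 in control NCX to 55.5 in control HP and Sncg from 2.94 to 7.07, and Sncg in HP, at 7.07 in controls and 5.36 in cTKO mice, has the widest gap between genotypes on this log scale.

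For each gene, the genes whose pattern over the 20 libraries was most like it were found among 13441 genes by the root mean square difference of mean-centred log2 CPM. Mapt was nearest to Nmnat2 (0.058) and Pld3 (0.059), where the median over all genes was 0.299. Map1a was nearest to Med13l and Trio, Map1b to Ep300 and Dido1, and Map2 to Ptprz1 and Gna13, at 0.089 to 0.096. Map4 was nearest to Eps15 (0.068) and Itm2b (0.074), and Stmn2 to Atl1 (0.063) and Acsl1 (0.065). The distances were larger for Sncb, with Peg13 (0.108), for Stmn1, with Elmo1 (0.130) and Numb (0.140), and for Sncg, with Bloc1s1 (0.236) and Ggact (0.270). None of the genes named here as nearest is another member. The points share libraries and regions, and these distances are a description.

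The other genes of the microtubule system were taken as 6 lists, and their genotype comparison gave 1 call in all. Of 14 tubulin subunits, 25 other microtubule-binding proteins and stathmins, 27 kinases and phosphatases of tau, 18 tubulin-modifying and severing enzymes, 19 motor proteins and 5 neurofilament proteins, 0 were called in NCX. The median log2 fold changes there were 0.05, -0.04, -0.03, 0.02, -0.03 and -0.18 in this order, against 0.01 over all genes. In HP the medians were 0.17, 0.05, 0.02, 0.07, 0.04 and 0.22, against 0.00 over all genes. Values above 0 were held there by 13 of 14 tubulin subunits, with 0 called. In the other lists they were held by 16 of 25, 15 of 27, 14 of 18, 15 of 19 and 5 of 5, and by 7071 of all 13702 genes. Reads that near-identical alpha-tubulin genes share cannot be assigned to a single copy, so values of single tubulin genes are uncertain.

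The call was Dcx, which codes for doublecortin, a microtubule-binding protein of immature neurons. It was 20, 16.5, 18.8, 17.1 and 18.5 CPM in control HP and 30.0, 24.8, 24.3, 33.6 and 32.3 CPM in cTKO HP, without overlap (1.91% of genes were so in this direction). Its log2 fold change was 0.67 (SE 0.10, 95% CI 0.45 to 0.90, FDR 0.0143 in edgeR). Leaving out control HP replicate 2 or 4 brought the FDR to 0.0603 or 0.0675, and in the other 17 alternatives it stayed under 0.05, being 0.0241 without cTKO HP replicate 4, which held embryonic transcripts. In NCX, Dcx had a log2 fold change of -0.19 (SE 0.13, FDR 0.664), and the difference between the regions was 0.87 (SE 0.18, FDR 0.0823 in the interaction test). The summed markers of immature neurons, a list that holds Dcx itself with Sox11, Igfbpl1, Neurod1 and Eomes, were 76.2 to 90.5 CPM in control HP and 108 to 134 CPM in cTKO HP, with all 5 detected. Among them Sox11, at 19.7 to 24.5 CPM in control HP and 26.3 to 71.7 CPM in cTKO HP, did not overlap either. The same held for Igfbpl1, at 1.25 to 2.14 and 4.09 to 8.66 CPM. Neurod1, at 34.2 to 45.9 and 28.1 to 51.4 CPM, and Eomes, at 0.430 to 0.994 and 0.805 to 1.69 CPM, did overlap. The summed astrocyte markers ranged from 1893 to 2395 CPM in control HP and from 1875 to 4810.0 CPM in cTKO HP, and the upper end was mostly Gfap, which was 333 to 556 CPM against 426 to 3113 CPM. The mean of Slc1a3 was 1045 CPM in control HP against 911 CPM in cTKO HP, that of Gja1 349 and 313 CPM and that of Aldh1l1 48.1 and 48.7 CPM. The part of these lists in the Dcx value was not tested.

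**Figure D5:**
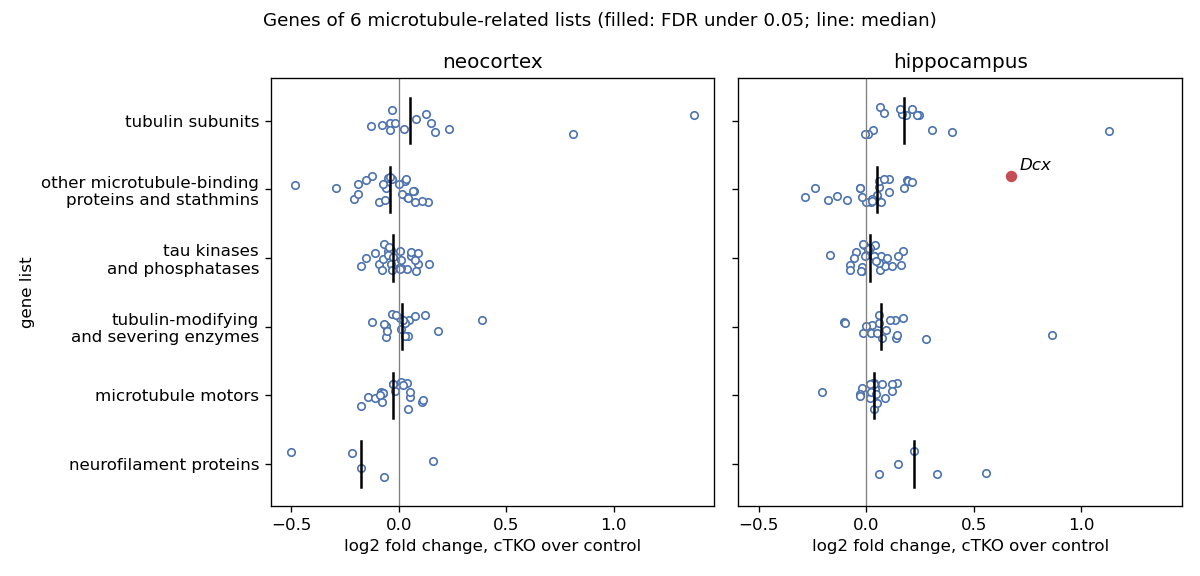
Log2 fold change of cTKO over control (horizontal axis) of each tested gene of 6 microtubule-related lists (vertical axis) in NCX and HP, with the median of a list as a line. Filled points have an FDR under 0.05 in edgeR's quasi-likelihood test. Dcx in HP, at 0.67, is the one such point, and the tubulin subunits in HP have a median of 0.17.

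Between the regions of control mice, where 29.8% of all genes were called higher and 29.2% lower in HP, most calls in these lists were lower in HP. Of the 13 tubulin subunits tested, 3 were higher and 6 lower. Tubb2b (log2 fold change 1.12) and Tubb2a (0.55) were higher, and Tubb4a (-0.64) and the neuronal Tubb3 (-0.50) were lower. Of the other microtubule-binding proteins and stathmins, 2 were higher and 18 lower, with Dcx (-1.48), its relative Dclk1 (-0.70), Map6 (-0.67), which stabilizes microtubules against cold, and Clasp1 (-0.63) having the smallest p. Of the kinases and phosphatases of tau, 5 were higher and 13 lower, and the smallest p were those of Mark1 (-0.91), which phosphorylates the repeats by which tau binds microtubules, Cdk5r2 (-0.85), an activator of Cdk5, Csnk1e (-0.74) and Mapk9 (-0.58). Of the tubulin-modifying and severing enzymes, 0 were higher and 12 lower, among them Ttl (-0.77), which restores the terminal tyrosine of alpha-tubulin, Ttll1 (-0.52), Agbl5 (-0.51) and the severing enzyme Fign (-1.66). Of the motor proteins, 3 were higher and 12 lower, among them the kinesins Kif21b (-1.07) and Kif1a (-0.44) and the dynein chains Dync1h1 (-0.81) and Dync1i2 (-0.41). Of the neurofilament genes, Nefm (-0.80), Nefh (-0.55) and Ina (-0.24) were lower and Nefl (0.30) was higher. The median log2 fold change was -0.03 for tubulins, -0.22 for the other microtubule-binding proteins, -0.14 for the tau kinases and phosphatases, -0.19 for the modifying enzymes, -0.28 for the motors and -0.24 for the neurofilaments, and 0.01 over all genes, while it was -0.24 over the 9 members.

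In cTKO mice, where 20.2% of all genes were called higher and 21.1% lower in HP, the lists had fewer calls. They numbered 3 higher and 2 lower of 14 tubulins, 2 and 8 of 25 other microtubule-binding proteins, 3 and 12 of 27 tau kinases and phosphatases, 1 and 7 of 18 modifying enzymes, 1 and 9 of 19 motors and 2 and 1 of 5 neurofilament genes. Among the neurofilament genes, the log2 fold change was -0.04 for Nefm (FDR 0.907), -0.12 for Ina (FDR 0.464), -0.38 for Nefh (FDR 0.00572) and 0.69 for Nefl (FDR 0.00324) in edgeR. The difference between the genotypes was 0.78 for Nefm in the interaction test (SE 0.23, FDR 0.539), and 0 genes of the 6 lists passed it.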

How the data were processed

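RNA-seq data of neocortex and hippocampus were compared between cTKO and control mice, 5 libraries for each genotype and region, with groups taken from the labels. The authors enriched poly-A RNA, mapped single-end reads to mm10 with STAR 2.5.4a at default parameters and counted them on genes with HTSeq, whose annotation and strand setting are not given in the sources used here. The deposited values are raw counts by gene symbol, which was checked, and they include no rows without a gene name.

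Counts were tested with edgeR 4.0.16 in R 4.3.3, following the TMM scaling named in the paper. Genes were kept where 5 or more of the 10 libraries compared exceeded 1 CPM, as all 9 members did, and group means were compared with the quasi-likelihood test. The Benjamini-Hochberg adjustment ran over all genes tested, and an FDR under 0.05 was taken as a call. The interaction was tested over all 20 libraries. Intervals are 95% CIs from the standard error of the fit. CPM of single libraries used TMM library sizes over the 20 libraries, with a prior count of 2 for log2 CPM. Single members were compared by exact permutation tests over 252 splits. No replicate pair held identical values (40 pairs). The test was tried on simulated data with known changes. Depth per library is given above, and floors reflect counting error alone, because without molecular identifiers a read is not a separate molecule.

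The members and lists were chosen with earlier results of these data known. Named are the 9 members, App, Aplp1 and Aplp2, list genes called between genotypes, the 4 smallest p of a list among calls between control regions, and the 2 genes nearest to each member. Some results of this rule and of the marker lists are not reported here. The paper states that both regions came from the same 5 cTKO and 5 control mice, but not that a number marks a mouse, and p-values measure only the spread between these samples. Deviations from the group means correlated between same-numbered NCX and HP libraries of controls in all 5 pairs (0.118 to 0.350), so the numbers were taken as pairs there, and the fit with the number as a block called the same 8 of 9 members. Alternatives were edgeR's exact and likelihood ratio tests, DESeq2 1.42.0, a robust fit, DESeq2's size factors, filterByExpr, no filter, all 20 libraries together, the replicate number as a block, and each library left out. Exonic length classes were described after the values had been seen. Figures were drawn with matplotlib 3.10.9.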

Additional observations from a re-analysis of the deposited data

Results flagged for a closer look

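Each gene was examined within each group of 5 libraries for a highest or lowest library whose gap to the next one took more than 0.71 of the group's range on the log2 scale. Of 36 groups, 2 were singled out, where chance gives about 1 in 20, or 1.8. Sncb was lowest in control HP replicate 3, at 368 CPM, where the other 4 held 445 to 479 CPM, and the gap was 0.719 of the range. That library also had the highest sum of choroid plexus and ependyma markers, 2618 CPM, and without it the regional log2 fold change of Sncb in controls kept its direction and its call. Stmn2 was highest in cTKO HP replicate 2, at 426 CPM, where the other 4 held 372 to 382 CPM, and the gap was 0.795 of the range. The permutation p of 0.0397 for Stmn2 in HP includes this library. The causes were not tested.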

How the results depend on the processing

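Directions and calls were recomputed under each alternative. Of the values, 1446 were labelled the same, 9 reversed, 16 stronger and 6 weaker. For a single gene, the same means an unchanged direction and call. A count of members called was labelled the same also when it differed by a small factor, as with 4 to 7 between regions of cTKO mice. In NCX, 1 member, Map1a, was called between genotypes by DESeq2 and by the exact and likelihood ratio tests of edgeR, against 0 in the quasi-likelihood test, and 0 in each fit that left out a library. In HP, leaving out a library turned the sign of log2 fold changes near 0, which ranged from -0.012 to 0.057 for Mapt, -0.086 to 0.061 for Map1b, -0.025 to 0.12 for Map2 and -0.021 to 0.080 for Stmn1. The cause was not tested. The region tests given above used no pairing. With the replicate block, 0 members were called between genotypes in NCX, 0 in HP and 0 for the interaction. Between regions 8 were called in controls and 5 in cTKO mice, so that the block changed no call of a member. In cTKO mice the number may not mark a mouse, so the block cannot show how pairing would affect their regional calls or the interaction. Same-numbered libraries correlated over 0.1 in 3 of 5 pairs in NCX and 1 of 5 in HP between genotypes. Such pairs share only a number. Between regions of cTKO mice 3 of 5 same-numbered pairs did so, and the 5 ranged from -0.084 to 0.372. Pairs of different numbers reached 0.592 there, so whether a number marks a cTKO mouse is not known. In one fit of all 20 libraries, the regional calls of Map1b (FDR 0.0684), Nefl (0.0507) and Ina (0.0652) in controls were lost, whereas Map1b (0.0171) and Map2 (0.0140) were called in cTKO mice. Map1b was called there by DESeq2 (0.0336), by the exact (0.0376) and likelihood ratio (0.0373) tests of edgeR and without cTKO HP replicate 3 (0.0412) or 5 (0.0342) or cTKO NCX replicate 3 (0.0338). Map2 was called by DESeq2 (0.0428) and without cTKO HP replicate 2 (0.0216). Without both libraries that held embryonic transcripts, 5 members were called between regions in cTKO mice and 0 for the interaction. Over all genes, calls between genotypes numbered 26 in NCX, with a range of 7 to 221 over the alternatives, 67 in HP (15 to 331) and 8 for the interaction (5 to 26). Of the 36 permutation tests of single members, 16 had p under 0.05. Between regions these were 8 of 9 in controls and 6 of 9 in cTKO mice. Between genotypes they were 1 of 9 in NCX and 1 of 9 in HP. Permutation was not run over all genes, so the shares at an unadjusted p under 0.05 are given from edgeR's quasi-likelihood test. Between regions such a p was held by 8737 of 13832 genes in controls and 6765 of 13846 in cTKO mice. Between genotypes it was held by 10.4% of genes in NCX and 12% in HP. The same 16 had p under 0.05 with a prior count of 0.5. Without TMM, Stmn2 between genotypes in HP went from 0.0397 to 0.111. Map1b between the regions of cTKO mice went from 0.0873 to 0.0397. Sncg, at 27 to 182 counts, is the gene whose precision the depth limits most.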
